A study of Homo sapiens with 33 samples.

Results

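Aminoacyl-tRNA synthetases attach each amino acid to its tRNA, and the ribosome cannot read the genetic code without them. Human cells hold a cytosolic set and a mitochondrial set, both encoded in the nucleus, and the mitochondrial enzymes serve only the few proteins that mitochondrial ribosomes make. In the cytosol, several of the enzymes join with the scaffold proteins AIMP1, AIMP2 and EEF1E1 in the multisynthetase complex. The genes described here are 36 members of these families, taken by name from 15149 distinct gene names in 3 deposited tables. Of these, 18 encode cytosolic enzymes and 16 encode mitochondrial ones. The other 2, GARS (glycine) and KARS (lysine), each supply both compartments and were kept apart. All 36 were measured in each of the tables, under the older names that the files use.

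The study deleted parts of GABPB1, a subunit of the ETS-family transcription factor GABP. GABP binds DNA through GABPA, recognises the GGAA core that ETS proteins share, and is known as an activator of nuclear genes for mitochondrial proteins. Cells of the melanoma line A-375 and the bladder cancer line UM-UC-3 were transfected with a Cas9 plasmid, sorted by fluorescence and grown as clones. The A-375 total knockout joins the labels B1KO (exons 2 to 9 deleted, 4 libraries) and B1X2KO (exon 2 deleted, 8 libraries), which makes 12 libraries of 9 clones. The A-375 long-form knockout, labelled B1LKO, has exon 9 deleted (2 libraries of 2 clones). The UM-UC-3 total knockout joins 4 B1KO and 5 B1X2KO libraries of 8 clones. The controls in the series are ROSA26_KO clones, edited at a safe-harbour locus (4 libraries in A-375, 3 in UM-UC-3), and parental cells (2 and 1). Table names give parental cells as the control, but not whether ROSA26_KO libraries entered too. With parental cells alone, all UM-UC-3 fold changes have a single control library behind them.

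The deposited values are fitted log2 fold changes of knockout over control with standard errors (SE). They hold no values of single libraries, whose depth and spread are therefore unknown, and the SE carries the replicate error. Genes count as called where the authors' DESeq2 Wald test gave an adjusted p under 0.05. SOX10, a melanoma lineage factor, had mean normalized counts of 14704 (A-375 total knockout) and 93.6 (UM-UC-3) in the authors' deposited tables. MITF (686 against 357), S100B (1586 against 53.1) and PMEL (20.1, unlisted in UM-UC-3) were also higher in A-375. AXL (6942 against 38279) and SOX9 (45.2 against 4664) were lower there. Such counts are normalized within each comparison and were not put on one scale. Over all genes they sum to 19457299 in the A-375 total knockout and 42400454 in UM-UC-3, so the sizes of these gaps are not folds between the lines. Of these 2 tables only that of UM-UC-3 lists MLANA and DCT, and neither lists TYR. Of the bladder markers, both list KRT7, KRT8, KRT18, GATA3 and PPARG, and neither lists UPK2, UPK3A, KRT19 or EPCAM. The markers thus do not all separate the lines. The entry for the long form, GABPB1L, changed by -10.60 ± 0.70 in the A-375 total knockout and by -12.60 ± 0.71 in the UM-UC-3 total knockout in the authors' deposited tables. In the comparison labelled long-form it changed by -12.79 ± 1.47 (authors' deposited table). In that comparison, however, the short-form entry GABPB1S changed by 13.95 ± 1.04 and its exon 2-deleted form GABPB1S-DEX2 by -12.00 ± 1.48 in the authors' deposited table. Where a form is near 0 in one group, these sizes have no meaning as folds. The short form without the deletion was thus listed almost only on the knockout side, although the labels place no GABPB1 deletion in the controls. The fall of GABPB1L has the direction that the label gives, and exchanged groups would reverse it. Whether entries or control libraries were exchanged was not tested, and directions in the comparison labelled long-form carry that doubt.

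Promoter windows of 30 of the 36 genes were found in RefSeq (GRCh38.p14, 250 bases before to 50 after the gene start). AARS2, DARS, LARS, VARS, VARS2 and YARS had no entry. The 8-letter ETS sequence that GABP is known to prefer, CCGGAAGT, was searched on both strands, where the reverse strand reads ACTTCCGG. It occurred in 7 of 30 windows (23.3%), against 6.19% of 15842 protein-coding and 4.44% of all 27305 windows. The 7 were split between 4 of 14 cytosolic genes (CARS, HARS, NARS and WARS) and 3 of 14 mitochondrial genes (EARS2, HARS2 and PARS2). The shorter CCGGAAG, which lies inside the longer motif, occurred in 14 of 30 windows (46.7%), against 14.2% of protein-coding windows.

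Windows of 5 genes with called responses are shown, with matches to CCGGAAGT or CCGGAAG on either strand in capitals. HARS, EARS2 and PARS2 hold the longer motif, TARS2 only the shorter one, and IARS2 neither.
HARS, chr5:140691321-140691620, minus strand: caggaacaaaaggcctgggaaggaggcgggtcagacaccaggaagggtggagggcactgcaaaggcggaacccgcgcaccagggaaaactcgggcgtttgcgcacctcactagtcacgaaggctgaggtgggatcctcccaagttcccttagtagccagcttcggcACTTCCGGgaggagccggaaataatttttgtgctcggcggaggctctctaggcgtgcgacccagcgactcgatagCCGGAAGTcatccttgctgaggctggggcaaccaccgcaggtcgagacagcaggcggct
EARS2, chr16:23557301-23557600, minus strand: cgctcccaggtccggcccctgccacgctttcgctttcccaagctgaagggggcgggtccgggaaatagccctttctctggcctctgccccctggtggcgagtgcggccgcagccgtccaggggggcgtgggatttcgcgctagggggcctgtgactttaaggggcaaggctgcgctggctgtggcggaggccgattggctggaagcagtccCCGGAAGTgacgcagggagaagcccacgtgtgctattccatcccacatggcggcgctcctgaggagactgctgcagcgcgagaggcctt
PARS2, chr1:54764474-54764773, minus strand: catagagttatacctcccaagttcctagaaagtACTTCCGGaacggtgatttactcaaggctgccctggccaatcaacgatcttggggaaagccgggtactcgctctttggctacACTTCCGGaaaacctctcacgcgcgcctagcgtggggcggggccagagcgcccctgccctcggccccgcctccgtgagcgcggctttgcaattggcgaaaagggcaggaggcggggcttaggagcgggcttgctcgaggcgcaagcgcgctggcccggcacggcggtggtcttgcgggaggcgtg
TARS2, chr1:150487169-150487468, plus strand: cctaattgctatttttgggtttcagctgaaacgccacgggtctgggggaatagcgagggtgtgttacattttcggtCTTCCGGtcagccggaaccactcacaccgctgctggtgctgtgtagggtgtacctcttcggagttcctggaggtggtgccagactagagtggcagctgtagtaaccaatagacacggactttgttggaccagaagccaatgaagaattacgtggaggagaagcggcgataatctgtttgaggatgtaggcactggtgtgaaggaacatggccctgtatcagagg
IARS2, chr1:220093882-220094181, plus strand: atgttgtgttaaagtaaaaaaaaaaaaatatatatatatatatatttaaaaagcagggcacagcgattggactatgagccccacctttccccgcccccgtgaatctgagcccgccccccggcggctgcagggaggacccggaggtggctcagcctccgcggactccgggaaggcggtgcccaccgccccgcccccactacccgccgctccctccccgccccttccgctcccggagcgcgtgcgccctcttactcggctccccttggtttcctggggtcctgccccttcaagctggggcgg

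HARS and HARS2, the cytosolic and mitochondrial histidine enzymes, lie head to head on chromosome 5, with RefSeq starts 85 bases apart. Their windows overlap by 184 bases and contain the same 2 CCGGAAGT matches, at chr5:140691372-140691379 and chr5:140691447-140691454, one on each strand. PARS2 also has 2 matches, at positions -217 and -135 from its start. The composite element bound by ATF4, searched as TGATGNAA, occurred in 6 of 14 cytosolic windows (AARS, CARS, IARS, MARS, NARS and TARS) and in 1 of 14 mitochondrial windows (YARS2), against 2.53% of protein-coding windows. The E-box CACGTG occurred in 1 of 14 cytosolic and 3 of 14 mitochondrial windows, against 8.88%. The palindromic motif of NRF1, a factor also known for mitochondrial genes, occurred only in MARS2 among these 30 windows, against 1.75% of protein-coding windows. A match is a sequence and not a measured binding site.

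**Figure D1:**
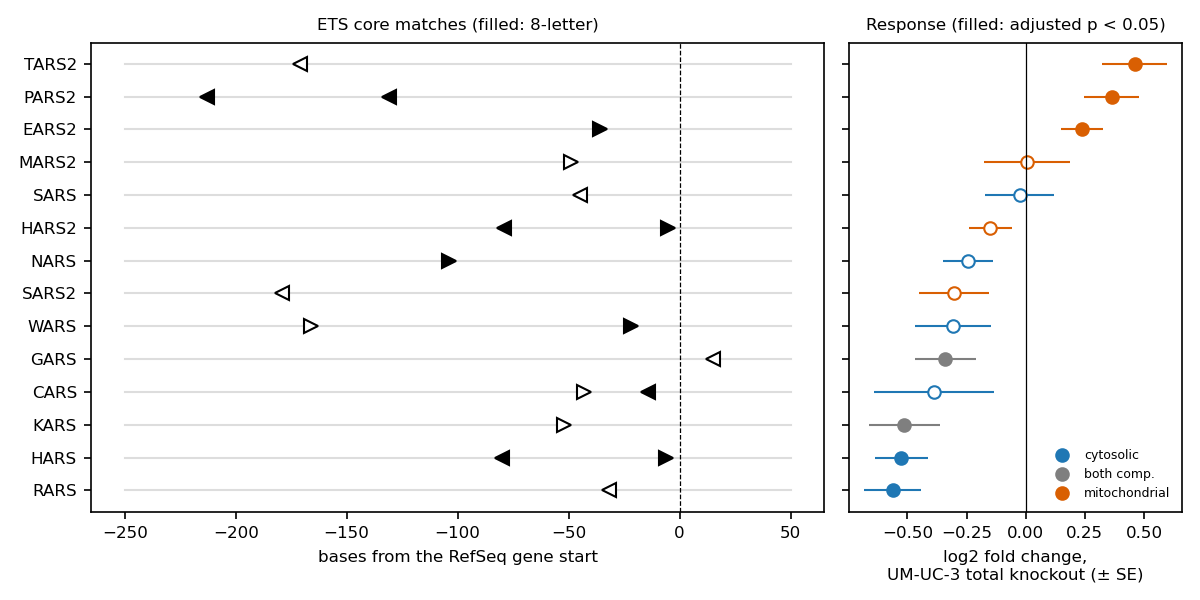
Positions of ETS core matches in the promoter windows of the 14 genes that have one, in bases from the RefSeq start (left; filled triangles are the 8-letter motif, open ones the 7-letter motif, pointing right for the forward strand and left for the reverse), beside the log2 fold change ± SE of each gene in the UM-UC-3 total knockout (right; filled points have an adjusted p under 0.05). TARS2, PARS2 and EARS2 lie above 0 and RARS, HARS, KARS and GARS below it, among genes that all carry the core.

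In the A-375 total knockout, 2 of the 36 genes passed the test, both lower, which is 5.56% where 10.8% of all genes passed (5.74% lower and 5.07% higher). The median SE was 0.20 for the 36 genes, against 0.28 for all genes. LARS, which charges leucine tRNA in the cytosol and also senses leucine for mTORC1, had a log2 fold change of -0.82 ± 0.19 (adjusted p 0.000673, authors' deposited table) and so fell by 43.3%. IARS2, the mitochondrial isoleucine enzyme, had -0.57 ± 0.14 (adjusted p 0.00134, authors' deposited table) and so fell by 32.7%. With the 2 parental libraries as controls, the deposited mean implies about 4392 normalized counts of IARS2 in knockout libraries, against 6527 in controls. LARS comes to 4805 in knockout libraries, against 8467 in controls, by the same calculation.

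The other 34 genes did not pass in A-375. Nearest to the threshold in the authors' deposited table were the mitochondrial serine enzyme SARS2 (-0.51 ± 0.22, adjusted p 0.118), the cytosolic methionine enzyme MARS (-0.50 ± 0.23, adjusted p 0.135) and the mitochondrial alanine enzyme AARS2 (-0.43 ± 0.20, adjusted p 0.146). The median log2 fold change was -0.24 for the 18 cytosolic and -0.18 for the 16 mitochondrial genes, against -0.05 for all genes. In the authors' deposited table, 25 of 36 values lay below 0 (69.4%), against 54.6% of all genes. The 95% interval of the fold change stayed within 2-fold for all but 3 members in that comparison, LARS, CARS and VARS. VARS, the cytosolic valine enzyme, had the highest value, 1.25 ± 0.58 (adjusted p 0.147, authors' deposited table).

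**Figure D2:**
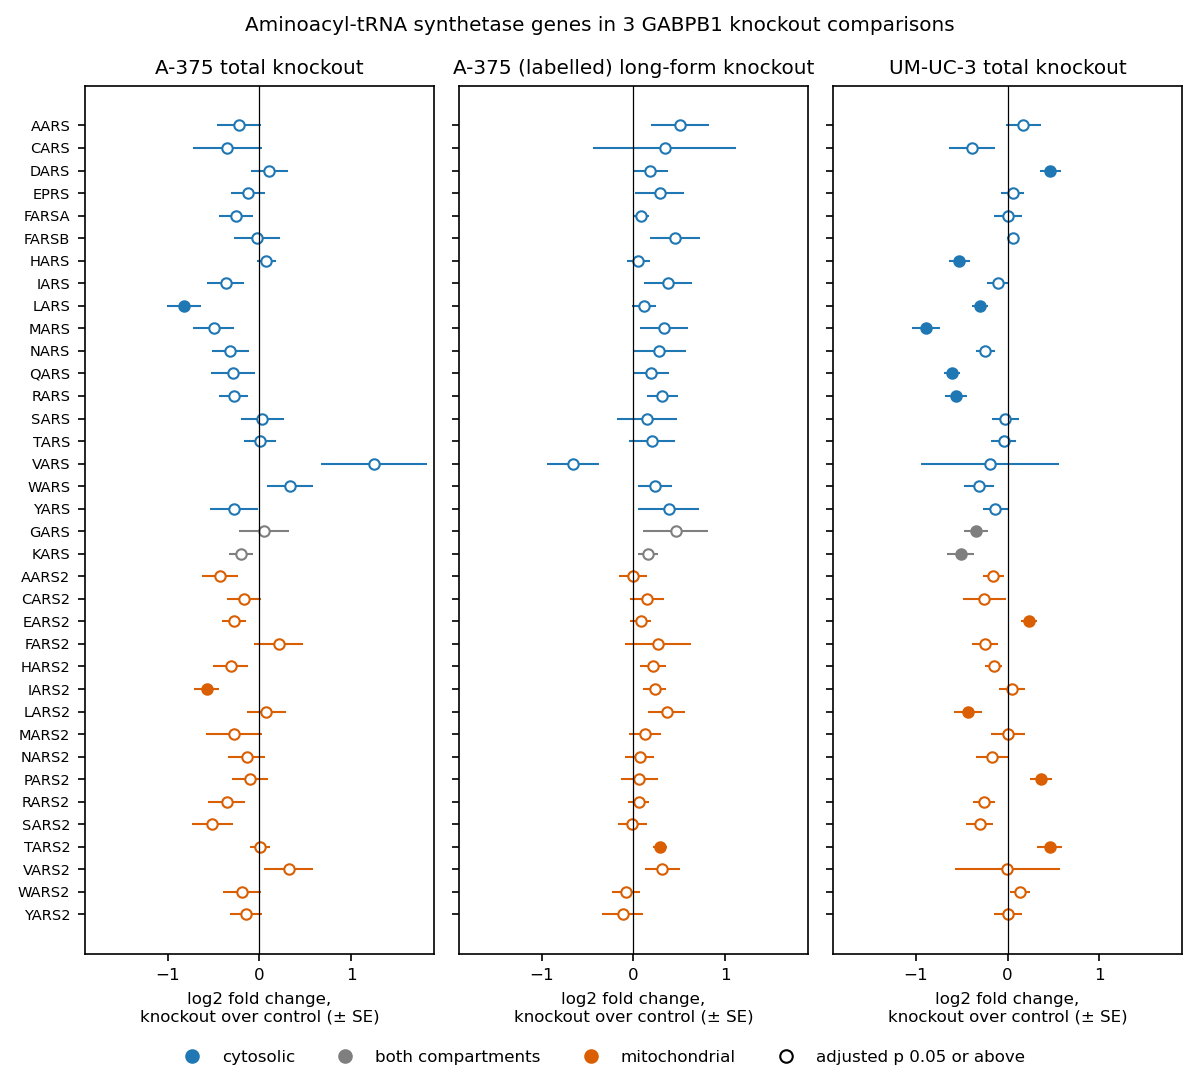
Log2 fold change of knockout over control with its SE for all 36 genes in the 3 deposited comparisons; filled points passed an adjusted p of 0.05, and colours mark the compartment of the enzyme. Filled points number 2 in A-375 total knockout, 1 in the comparison labelled long-form and 12 in UM-UC-3, and VARS has the widest bars in the A-375 total knockout and in UM-UC-3.

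In UM-UC-3, 12 of the 36 passed, which is 33.3% where 31.1% of all genes passed. That share is close to the background, but the members are not like all genes in level or error. Their median mean normalized count was 3890, against 1370 for all genes, and their median SE was 0.14, against 0.18. Among the cytosolic genes 5 of 18 fell and 1 rose, and GARS and KARS fell too. Among the mitochondrial genes 3 of 16 rose and 1 fell. Over all genes, 14.2% fell and 17.0% rose, so the share of mitochondrial genes that rose (18.8%) is also near the background. Values below 0 numbered 13 of 18 for cytosolic and 9 of 16 for mitochondrial genes in the authors' deposited table, and the difference between the compartments was not tested.

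The cytosolic genes that fell were led by MARS, at -0.89 ± 0.15 (adjusted p 2.48e-07, authors' deposited table). The transcript of this enzyme, which charges initiator and elongator methionine tRNAs, fell by 46.1%. QARS, the glutamine enzyme, had the smallest p, with -0.60 ± 0.09 (adjusted p 1.7e-10, authors' deposited table). RARS, for arginine, fell by 0.56 ± 0.12 (adjusted p 5.57e-05, authors' deposited table). For HARS the value was -0.53 ± 0.11 (adjusted p 5e-05, authors' deposited table). LARS fell here as well, by 0.30 ± 0.09 (adjusted p 0.00357, authors' deposited table). Of the enzymes that work in both compartments, the authors' deposited table gives KARS -0.51 ± 0.15 (adjusted p 0.00431) and GARS -0.34 ± 0.13 (adjusted p 0.0303). With 1 parental control, MARS comes to about 14740 normalized counts in knockout libraries, against 27330 in the control, and QARS to 6421, against 9750.

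The 4 genes that rose in UM-UC-3 were TARS2, PARS2, EARS2 and DARS. TARS2, the threonine enzyme, rose by 0.46 ± 0.14 (adjusted p 0.00451, authors' deposited table), or 37.6%. PARS2, for proline, rose by 0.36 ± 0.12 (adjusted p 0.00925, authors' deposited table). EARS2, for glutamate, rose by 0.24 ± 0.09 (adjusted p 0.026, authors' deposited table), a call lost after the table was centred on its median (adjusted p 0.056). The one mitochondrial gene that fell was LARS2, for leucine, at -0.43 ± 0.15 (adjusted p 0.0185, authors' deposited table). DARS, for aspartate, was the only cytosolic gene that rose, by 0.46 ± 0.12 (adjusted p 0.000605, authors' deposited table). Nearest to the threshold but not called in the authors' deposited table were NARS (-0.24 ± 0.11, adjusted p 0.0643), RARS2 (-0.26 ± 0.12, adjusted p 0.0836) and SARS2 (-0.30 ± 0.15, adjusted p 0.106), for asparagine, arginine and serine.

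Members of the multisynthetase complex made up most of the cytosolic calls. Of its 8 enzymes (EPRS, IARS, LARS, MARS, QARS, RARS, KARS and DARS), 5 fell (62.5%) and 1 rose (12.5%) in UM-UC-3, where 14.2% of all genes fell and 17.0% rose. Their median log2 fold change was -0.41, against 0.03 for all genes. These 8 genes are also more highly expressed and more precisely measured than all genes. Their median mean normalized count was 12315, against 1370, and their median SE was 0.12, against 0.18. The shares called are therefore not like for like. Among the 11 cytosolic genes outside it, 1 fell (HARS) and 0 rose by the authors' DESeq2 test, with 2 at an unadjusted p under 0.05 and a median of -0.14. The 2 genes that serve both compartments are placed unequally here, since KARS is among the 8 and GARS is not among the 11. GARS, also outside the complex, fell too (-0.34 ± 0.13, adjusted p 0.0303, authors' deposited table). EPRS, which charges both glutamate and proline tRNAs, and IARS, for isoleucine, had 0.06 ± 0.12 and -0.11 ± 0.12 in the authors' deposited table and were not called. Of the scaffold genes, EEF1E1 fell by 0.38 ± 0.16 (adjusted p 0.0458), while AIMP2 (-0.14 ± 0.14) and AIMP1 (0.11 ± 0.13) did not pass in the authors' deposited table. In the A-375 total knockout 1 of the 8 enzymes fell (LARS, 12.5%), where 5.74% of all genes fell. The median of the 8 was -0.28 there, against -0.05 for all genes. The difference between enzymes inside and outside the complex was not tested.

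Genes carrying CCGGAAG did not move one way in UM-UC-3. Of the 6 mitochondrial genes with it, 3 rose (EARS2, PARS2 and TARS2) and 0 fell, where 17.0% of all genes rose and 14.2% fell. The EARS2 call is lost after centring (adjusted p 0.056). At an unadjusted p under 0.05 by the authors' DESeq2 test there were 4 of the 6. These include SARS2, which was lower (-0.30 ± 0.15, adjusted p 0.106). Of the 8 mitochondrial genes without CCGGAAG 0 rose and 1 fell (LARS2) by the authors' DESeq2 test, with 2 at an unadjusted p under 0.05. Of the 6 cytosolic genes with it 2 fell (HARS and RARS) and 0 rose, with KARS and GARS, which both carry it, also lower. Of the 8 cytosolic genes without it 2 fell (MARS and QARS). HARS and HARS2, whose shared windows hold the same matches, had -0.53 ± 0.11 and -0.15 ± 0.09 by the authors' deposited table, where HARS2 was not called (adjusted p 0.209). No test was made of these motif groups.

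In the comparison labelled long-form, 1 of 36 genes passed (2.78%, where 0.904% of all genes passed, 0.664% lower and 0.24% higher). It was TARS2, at 0.29 ± 0.08 (adjusted p 0.0234, authors' deposited table), which implies 4902 normalized counts in knockout libraries, against 4022 in controls when 2 parental libraries are assumed. The median log2 fold change was 0.26 for cytosolic and 0.10 for mitochondrial genes, against 0.02 for all genes. As the authors' deposited table gives the direction, 31 of 36 values lay above 0 and 5 below, against 52.2% of all genes above and 47.8% below, and with the groups exchanged these would change places. Single errors were large for the cytosolic genes, with a median SE of 0.26, against 0.16 for the mitochondrial genes and 0.22 for all genes. Nearest to the threshold in the authors' deposited table were VARS (-0.66 ± 0.28, adjusted p 0.339), IARS2 (0.23 ± 0.12, adjusted p 0.479) and RARS (0.31 ± 0.17, adjusted p 0.479). This comparison may share its control libraries with the A-375 total knockout, so the values stand side by side only. LARS, the lowest gene of the total knockout, had 0.11 ± 0.13 here (authors' deposited table).

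Levels were compared per kilobase of the longest GENCODE 29 transcript of each gene. The median mean normalized count per kilobase of cytosolic genes was 5.13 times that of mitochondrial genes in the A-375 total table, 4.95 times in the table labelled long-form and 6.53 times in the UM-UC-3 table. FARSA, a subunit of the phenylalanine enzyme, had the highest level per kilobase of the cytosolic genes in both A-375 tables (2696 in the total table), and SARS, for serine, in UM-UC-3 (8312). IARS2 was the highest mitochondrial gene in each table, with 1320 per kilobase in the A-375 total table. VARS and VARS2 were the lowest of their classes in each table, with 44.7 and 24.1 per kilobase in the A-375 total table. Both lie in the major histocompatibility region, and the part of read placement in their counts was not tested. CARS, the cytosolic cysteine enzyme, was the only cytosolic gene under its mitochondrial partner in the A-375 total and UM-UC-3 tables, and in the table labelled long-form VARS was too.

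**Figure D3:**
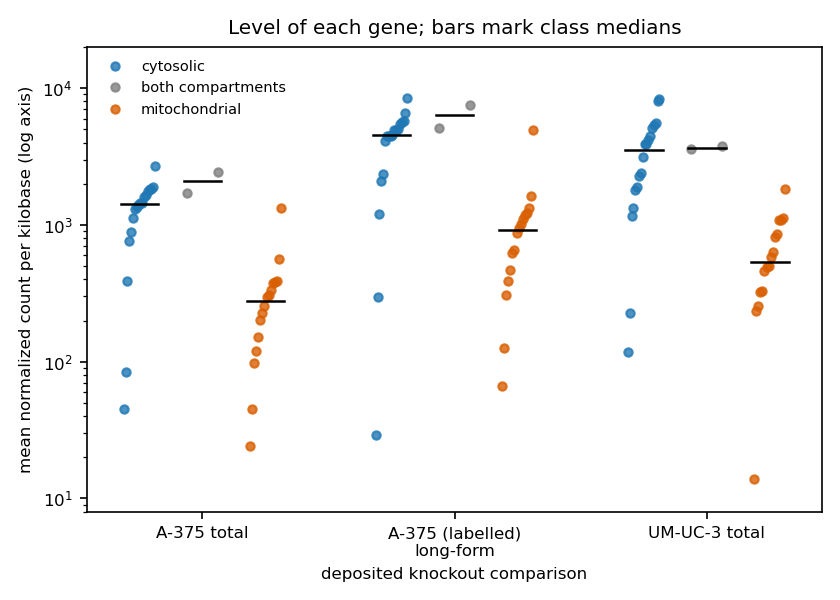
Mean normalized count per kilobase of the longest transcript (log axis) for each gene in the 3 deposited tables, by compartment, with a bar at each class median. Cytosolic medians lie about 5.13, 4.95 and 6.53 times above mitochondrial ones in the order of the axis, and the lowest point of each class is VARS or VARS2.

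For 13 amino acids the cytosolic and the mitochondrial enzyme are single separate genes in the list. In UM-UC-3 the cytosolic gene had the lower log2 fold change in 10 of 13 pairs, with a median difference, cytosolic minus mitochondrial, of -0.16. The widest gap was for methionine, where MARS was at -0.89 and MARS2 at 0.00 in the authors' deposited table. Next came threonine, with TARS at -0.04 and TARS2 at 0.46 in the authors' deposited table. In the A-375 total knockout the cytosolic gene was lower in 6 of 13 pairs (median difference 0.07), and in the comparison labelled long-form in 4 of 13 as deposited (median 0.19), or in 9 of 13 (median of the opposite sign) if its groups were exchanged. The widest gaps in the A-375 total knockout were for valine, with VARS at 1.25 and VARS2 at 0.32, and for leucine, with LARS at -0.82 and LARS2 at 0.08, in the authors' deposited table. Neither valine gene was called there. In UM-UC-3 both leucine genes fell. The genes of a pair come from the same libraries, and their differences were not tested.

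**Figure D4:**
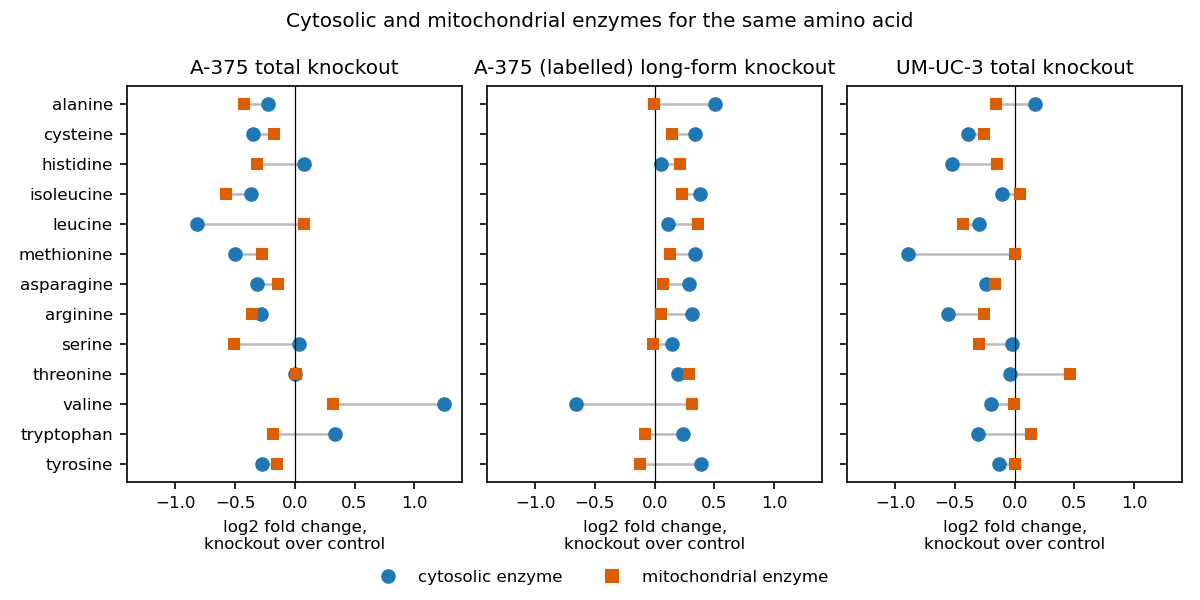
Log2 fold change of knockout over control for the cytosolic (circles) and mitochondrial (squares) enzyme of 13 amino acids in the 3 deposited comparisons, joined by a line. In UM-UC-3 the circle lies left of the square in 10 of 13 rows, against 6 in the A-375 total knockout and, as deposited, 4 in the comparison labelled long-form.

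The response to the total knockout was compared between lines as the difference of the fold changes, A-375 minus UM-UC-3, over its combined SE, with normal p-values adjusted by the Benjamini-Hochberg method over 12639 genes. Of the 36 members 3 differed (8.33%, where 10.4% of all genes differed, 4.12% with A-375 above UM-UC-3 and 6.32% below). HARS was higher in A-375, by 0.60 ± 0.15 (adjusted p 0.00326), with 0.08 ± 0.10 in A-375 and -0.53 ± 0.11 in UM-UC-3 in the authors' deposited tables. EARS2 was lower in A-375, by -0.52 ± 0.16 (adjusted p 0.0196), with -0.28 ± 0.13 in A-375 and 0.24 ± 0.09 in UM-UC-3 in the authors' deposited tables. IARS2 was lower in A-375 as well, by -0.62 ± 0.20 (adjusted p 0.0246), with -0.57 ± 0.14 in A-375 and 0.05 ± 0.14 in UM-UC-3 in the authors' deposited tables. After both tables were centred on their medians, HARS was called and EARS2 and IARS2 were not (adjusted p 0.0575 and 0.0583). LARS was the only gene of the family called in both lines, lower in each, and its difference of -0.52 ± 0.21 did not pass (adjusted p 0.0813). Of all genes, 10.8% were called in the A-375 total knockout and 31.1% in UM-UC-3. The share of all genes called in both was not counted, so the overlap at LARS is not read as a trait of the family. The median difference was -0.02 for cytosolic genes, -0.19 for mitochondrial genes and -0.09 for all genes.

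**Figure D5:**
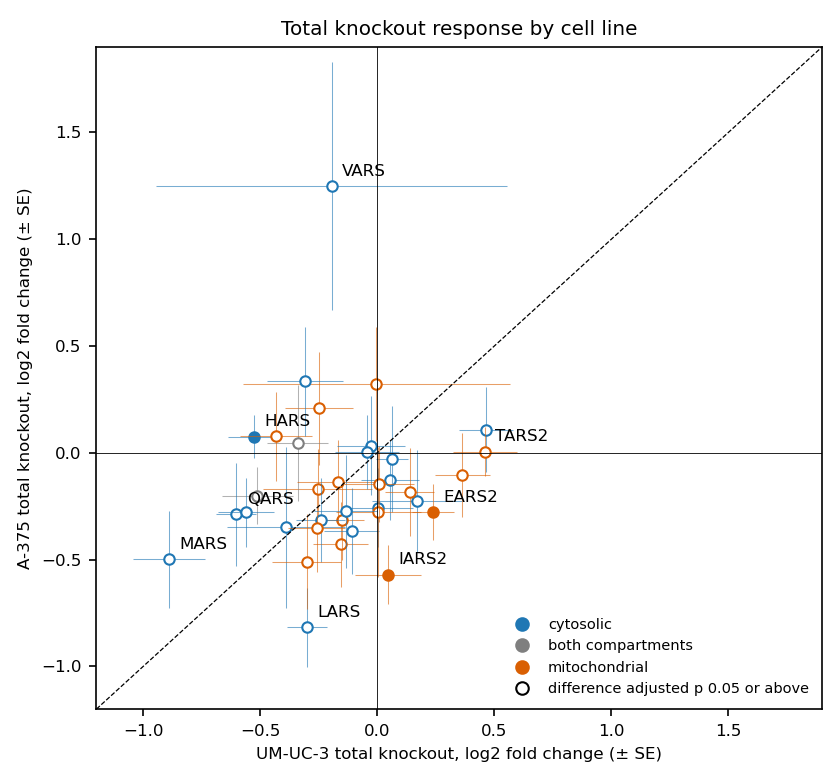
Log2 fold change ± SE in the A-375 total knockout (vertical) against the UM-UC-3 total knockout (horizontal) for the 36 genes; the dashed line marks equal responses and filled points differ between lines at an adjusted p under 0.05. HARS lies above the line and EARS2 and IARS2 below it, and LARS and MARS are below 0 in both lines.

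Genes that work with the synthetases were counted from lists set alongside the members. Of 20 genes of mitochondrial tRNA maturation and charging, 6 fell (30.0%) and 2 rose (10.0%) in UM-UC-3, where 14.2% of all genes fell and 17.0% rose. The lowest p in the authors' deposited table belonged to TRMU, which thiolates mitochondrial tRNAs (-0.67 ± 0.13, adjusted p 8.52e-06), CDK5RAP1, which methylthiolates them (-0.67 ± 0.15, adjusted p 0.000138), the RNase P subunit KIAA0391 (-0.52 ± 0.15, adjusted p 0.00316) and the methyltransferase TRMT5 (0.35 ± 0.11, adjusted p 0.00607). Of 12 mitochondrial translation factors, 3 fell and 3 rose, which is 25% each way against the same shares of all genes. The ribosome-recycling factor GFM2 (-0.51 ± 0.11, adjusted p 0.000104), the elongation factor TSFM (-0.54 ± 0.15, adjusted p 0.0016) and the release factor MTRF1L (-0.52 ± 0.14, adjusted p 0.0019) fell, and the elongation factor-like GTPase GUF1 rose (0.40 ± 0.11, adjusted p 0.00355), as the authors' deposited table gives them. In the A-375 total knockout 0 of the 20 and 0 of the 12 passed by the authors' DESeq2 test, where 10.8% of all genes passed. At an unadjusted p under 0.05 there were 1 and 3. The comparison labelled long-form also had 0 of 20 and 0 of 12, where 0.904% of all genes passed, with 1 and 0 at that unadjusted p.

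Cytosolic elongation and termination factors had 1 of 11 lower and 1 higher in UM-UC-3, which is 18.2% called where 31.1% of all genes were. By the authors' deposited table, EIF5A fell by 0.63 ± 0.14 (adjusted p 5.57e-05) and its paralog EIF5A2 rose by 0.90 ± 0.24 (adjusted p 0.00129). In the A-375 total knockout 2 of 11 rose (18.2%, where 5.07% of all genes rose), which the authors' deposited table gives as EEF1A2 (2.05 ± 0.57, adjusted p 0.00711) and EEF1B2 (0.40 ± 0.14, adjusted p 0.0345). Several cytosolic synthetases are known targets of ATF4, a factor induced by amino acid shortage. Of 28 ATF4-linked amino acid genes measured in UM-UC-3, 6 fell and 4 rose, and the 35.7% called is near the 31.1% of all genes. The stress factor DDIT3 rose by 1.98 ± 0.25 (adjusted p 4.91e-13, authors' deposited table). The serine synthesis enzymes PHGDH (-1.04 ± 0.17, adjusted p 2.33e-08) and PSAT1 (-0.94 ± 0.17, adjusted p 1.38e-06) and the asparagine synthetase ASNS (-0.87 ± 0.14, adjusted p 5.74e-08) all fell, as the authors' deposited table gives them. In the A-375 total knockout 0 of 27 passed by the authors' DESeq2 test, where 10.8% of all genes passed, with 2 at an unadjusted p under 0.05. In the comparison labelled long-form 0 of 27 passed, where 0.904% of all genes passed, again with 2. The median SE of the list was 0.38 and 0.45 in these comparisons, against 0.28 and 0.22 for all genes tested. Intervals from the SE reached beyond 2-fold for 17 of 27 genes in each. With such errors the 0 calls do not show that these genes were unchanged.

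Neighbouring genes that start within 1000 bases on the opposite strand in GENCODE 29 were measured for 10 of the members. DDX19B, an RNA helicase gene 120 bases from the start of AARS, rose by 0.44 ± 0.14 in UM-UC-3 (adjusted p 0.00957, authors' deposited table). It also rose by 0.54 ± 0.13 in the comparison labelled long-form, as its direction is deposited (adjusted p 0.0094, authors' deposited table), and was not called in the A-375 total knockout (0.10 ± 0.15, adjusted p 0.724, authors' deposited table). AARS itself had 0.17 ± 0.19 in UM-UC-3 and 0.51 ± 0.32 in the comparison labelled long-form in the authors' deposited tables and was not called. UBFD1, next to EARS2, had -0.03 ± 0.08 in UM-UC-3 (adjusted p 0.779, authors' deposited table), and TERF2IP, next to KARS, had 0.03 ± 0.13 (adjusted p 0.891, authors' deposited table). LYRM4 next to FARS2, ORC3 next to RARS2, ING1 next to CARS2, WDR25 next to WARS and MRPS12 next to SARS2 passed in none of the 3 tables, with log2 fold changes between -0.16 and 0.51 in the authors' deposited tables. Where such genes overlap, reads cannot be told apart unless the counting used the strand, which no source used here states.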

How the data were processed

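RNA was sequenced from 33 libraries (20 A-375, 13 UM-UC-3). Per the submitters' processing notes, the authors used DESeq2, HISAT2, StringTie and SAMtools, with no versions listed, and the build hg38. The annotation, gene filter, design formula and control libraries of each fit are stated in no source used here. Per the file headers, the authors deposited for each gene a signal (mean count divided by size factors over the libraries of a fit), a log2 fold change with its SE, a Wald statistic (the score column), and a p-value, adjusted p-value and q-value. Nothing says whether replicate libraries of a clone were treated as independent, so p-values may measure partly technical spread.

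The test is the authors' DESeq2 fit, with calls at an adjusted p under 0.05. Class medians, 95% intervals from the SE and implied levels were computed from the deposited columns with Python 3.11.15, NumPy 2.4.6, pandas 2.3.3 and SciPy 1.17.1. So was the difference between cell lines, over genes whose mean normalized count reached 10 in each line's table. The test of this difference was run on simulated fold changes drawn with the deposited SE, which cannot show whether those SE are right. Gene places and lengths came from GENCODE 29 (hg38; 36 of 36 found), and promoters from RefSeq, using the first window listed for each gene. All members called in any test are named, with the 3 nearest to the threshold in each table, up to 4 genes of each other list, and genes that start head to head with a member. The members and lists were chosen with earlier results of these data known. Alternatives were a threshold of 0.01, the q-value, minimum means of 10 and 100, centring, and other placements of KARS and GARS.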

Additional observations from a re-analysis of the deposited data

Results flagged for a closer look

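The total-knockout response of 3 genes differed between the cell lines by the test of the difference itself, over 12639 genes. HARS differed by 0.602 on the log2 scale (A-375 minus UM-UC-3), EARS2 by -0.515 and IARS2 by -0.617. HARS fell in UM-UC-3 and had 0.08 ± 0.10 in A-375 in the authors' deposited tables. EARS2 rose in UM-UC-3 and was not called in A-375, while IARS2 fell in A-375 and was not called in UM-UC-3. The controls of each line are few, and a difference between their control libraries was not tested.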

How the results depend on the processing

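No paired analysis was possible because the deposited tables hold no values per library, and for the same reason no library could be left out. The number of genes called in the comparison labelled long-form was 0 at a threshold of 0.01, where TARS2 is lost (adjusted p 0.0234, with 2 of the 36 at an unadjusted p under 0.05 in the authors' DESeq2 test). The number that differ between cell lines was 1 at a threshold of 0.01 and 1 with both tables centred on their medians, and HARS was the gene called each time. Both A-375 total-knockout calls, LARS and IARS2, were made under each of the 5 alternatives. In UM-UC-3 the count moved from 12 to 9 at 0.01, where EARS2, GARS and LARS2 are lost, and to 15 with the q-value, which adds NARS, RARS2 and SARS2. Centring exchanged EARS2 for NARS. Thresholds, the q-value and minimum means do not alter a deposited log2 fold change, so only centring could change its sign. The largest table median removed was -0.05 (A-375 total knockout), while the called value nearest to none was 0.24 (EARS2 in UM-UC-3). The signs of called genes were thus bound to stay the same, and that is no test of them. The median log2 fold change of mitochondrial genes in UM-UC-3 was -0.15 with KARS and GARS counted among them, against -0.08 without, and that of cytosolic genes -0.22 with them, against -0.16 without. Implied levels of MARS and QARS in UM-UC-3 knockout libraries were 12670 and 5825 with ROSA26 libraries added to the controls. Depth per library is unknown, and the SE limits each value.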

Other observations

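VARS behaved unlike the other members between the A-375 tables. Its mean normalized count in the table labelled long-form was 0.654 times that in the total table, while the other 35 members had 2.44 to 4.01 times and all 13949 genes measured in both a median of 2.86 times. Of all genes, 1.73% had a ratio below 1. VARS lies on chromosome 6 (31777518 to 31795953, hg38) in the major histocompatibility region, as does VARS2 (30908242 to 30926459). Across 15 protein-coding genes measured from VARS2 to VARS, 3 had a ratio below 1 and the median was 1.69. The median SE of these genes in the authors' deposited A-375 total table was 0.55, against 0.27 for all genes. This stretch was chosen after the values of VARS were seen, and the part of read placement in it was not tested. VARS2 had a ratio of 2.75, near that of all genes.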
